A study of Homo sapiens with 4 samples.

Results

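The genes of the proteasome were taken by name from the gene table, as every gene whose symbol runs from PSMA to PSMG and ends in a number, together with POMP. The rule uses no measured value and found 48 of 16834 genes. Of these, 47 had at least 10 estimated counts in at least 1 library. PSMB11, a beta subunit of the thymus, had at most 1 count in any library and is left out of every comparison. By role the 48 genes are 7 alpha subunits and 7 standard beta subunits of the 20S core, 4 inducible or tissue-specific beta subunits, 6 ATPases and 14 non-ATPase genes of the 19S particle, 4 activator genes, and 6 genes for assembly factors and an inhibitor.

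The proteasome is the protease that degrades proteins marked with ubiquitin. Its 20S core is a barrel of alpha and beta rings with the active sites inside, and the 19S particle caps the barrel, binds ubiquitin, removes it, and unfolds and feeds in the substrate. When proteasome activity is limiting, the transcription factor NRF1, encoded by NFE2L1, is released from the endoplasmic reticulum and raises the genes of the core and of the 19S particle together. Interferon instead raises inducible beta subunits, which replace the standard catalytic ones, and the PA28 activator that opens the core without using ubiquitin.

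The cells are labelled MIA PaCa-2, an established line from a human pancreatic ductal adenocarcinoma (PDAC). One library each was made from control cells, from cells given 1 µM NBT, from cells given 5 µM trametinib, and from cells given both drugs, all after 12 h. NBT is neobractatin, a natural compound from Garcinia, and trametinib blocks the MAPK pathway at MEK. The study asked how the drugs act together, and for the proteasome genes that question falls into the change with each drug alone, the change with the combination, and the change that NBT made without and with trametinib.

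Estimated counts summed to between 18776212 and 19614763 per library. Some markers went against the labelled line. CDKN2A, known to be deleted in MIA PaCa-2, had 2643 to 3524 counts per library, and VIM, abundant in that line, stood at 11.5 to 26.4 TPM (a level corrected for gene length, with the same sum in every library) beside 1493 to 3799 TPM for the epithelial keratin KRT8. The cell line entries of the labels also carry different numbers for different libraries, so the cells are called here the libraries labelled MIA PaCa-2. Among markers of other cells, PTPRC had 8 to 17 counts, PECAM1 had 14 to 26 and PDGFRB at most 2, whereas CD3E had 0 counts in the control and NBT libraries and 55 and 29 in the trametinib and combination libraries, and CD68, also a gene of lysosomes, had 1503 to 2400. Their part in the results below was not tested. Genes listed as checks of the drugs moved with the labels, though the lists were made with earlier results of these data known. DUSP6, a feedback gene of the MAPK pathway, had 329 and 521 counts without trametinib and 14 and 9 with it, and HMOX1, the oxidative stress gene for heme oxygenase, had 121 counts in the control library, 4825 with NBT, 382 with trametinib and 44631 with both.

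Each condition is a single library, so no difference below has a replicate check and no p-value is given. Any comparison of counts compares these libraries, not the conditions. A change is given as the log2 ratio of counts scaled to each library's sum, with its 95% Clopper-Pearson interval in brackets where one is printed, which covers counting error only. A gene is called higher or lower where its log2 ratio is at least 0.5 in size and the interval lies off 0. Counts of proteasome genes past a limit are set beside the share of all tested genes past the same limit. Fewer cells and less RNA of a gene per cell cannot be told apart in these bulk libraries.

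Levels are first given in TPM, since these can be compared between genes. The proteasome genes together held 9709 TPM in control cells, 11318 after NBT, 10478 after trametinib and 12009 after both drugs, and their share of all counts was 0.740%, 0.902%, 0.777% and 0.925%. The sum was thus higher in each library with NBT than in its partner without NBT. PSMB4, a structural beta subunit, had the highest level in the control library at 656 TPM and again in the combination library at 861 TPM. The standard beta subunits had a median of 450.3 TPM in the control library, the alpha subunits 253 TPM, the ATPases 255 TPM and the non-ATPase genes of the 19S particle 117 TPM. Subunits that enter the particle in equal number were not level in RNA. Among the 7 alpha subunits the control library ran from 53.4 TPM for PSMA5 to 490.1 TPM for PSMA7, a 9.19-fold span, and in the combination library the span was 7.20-fold between the same genes. The inducible subunits lay far below, with 8.31 TPM for PSMB8, 3.75 TPM for PSMB9 and 25.7 TPM for PSMB10 in the control library.

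**Figure D1:**
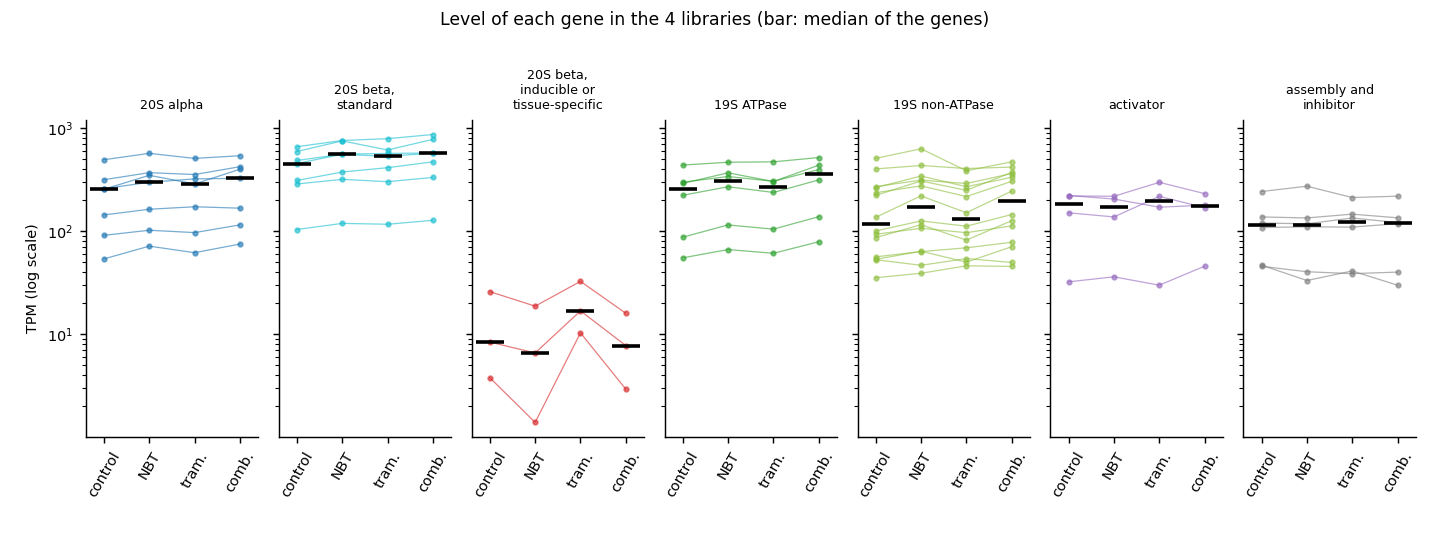
Each line is 1 gene and joins its TPM (log scale) in the control, NBT, trametinib (tram.) and combination (comb.) libraries, 1 panel per group, with the black bar at the median of the genes. PSMB11 is not drawn. The standard beta, alpha and ATPase medians are lowest in the control library and highest in the combination library, whereas the 3 inducible subunits peak in the trametinib library.

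Because the core and 19S genes moved together, the stretch before their start sites is shown for 2 of them that hold the letters of several known elements. The RefSeq table (GRCh38.p14) has the 250 bases before the start for 42 of the 48 genes. TGACNNNGC is the core of the antioxidant response element that NRF1 and NRF2 bind, CCAAT is the box bound by NF-Y, CACGTG is the E-box, TTCNNNGAA is a short form of the heat shock element and GAAANNGAAA is a form of the element bound by interferon regulatory factors. All 5 were searched on both strands, the last 2 having been added after values were seen, and matches of different motifs may overlap. PSMB3, a structural beta subunit, lies on the plus strand with its window at chr17:38752491-38752740, and PSMD3, a 19S scaffold subunit, on the plus strand with its window at chr17:39980557-39980806. Capitals mark every match, read on the gene's strand, where ATTGG is CCAAT on the other strand.
PSMB3: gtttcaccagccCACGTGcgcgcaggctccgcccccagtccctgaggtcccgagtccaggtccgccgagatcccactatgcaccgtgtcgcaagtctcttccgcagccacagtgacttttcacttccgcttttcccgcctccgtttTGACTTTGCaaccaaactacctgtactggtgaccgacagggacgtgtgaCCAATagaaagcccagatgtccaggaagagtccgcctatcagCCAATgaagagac
PSMD3: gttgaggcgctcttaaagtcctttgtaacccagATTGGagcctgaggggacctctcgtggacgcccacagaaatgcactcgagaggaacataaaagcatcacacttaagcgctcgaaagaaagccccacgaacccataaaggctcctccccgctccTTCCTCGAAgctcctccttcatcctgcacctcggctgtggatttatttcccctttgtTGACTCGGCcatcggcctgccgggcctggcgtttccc

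Short stretches are shown around matches in some further genes, picked because they hold one, again from GRCh38.p14 and on the gene's strand. For TGACNNNGC these are the alpha subunit PSMA4 at chr15:78540650-78540678 (plus strand), the 19S subunit PSMD12 at chr17:67366724-67366752 (minus strand), the ATPase PSMC5 at chr17:63827654-63827682 (plus strand) and the activator PSME4 at chr2:53971009-53971037 (minus strand), where the match in PSMC5 and PSME4 is on the other strand and so is printed as its reverse complement. For GAAANNGAAA they are the inducible subunit PSMB10 at chr16:67936852-67936881 and the PA28 subunit PSME2 at chr14:24146619-24146648, both on the minus strand. PSMA4, PSMB4 and PSMG4 also held GAAANNGAAA and are not shown, and the windows of PSMB8, PSMB9 and PSME1 did not hold it. The TGACNNNGC matches in PSMA4 and PSMC5 lie in windows of later start sites, inside the gene and in annotated exons. The windows of PSME4 and PSME2 also lie wholly in annotated exons of any gene, as do 237 of the 250 bases for PSMB10. Capitals mark the match.
PSMA4: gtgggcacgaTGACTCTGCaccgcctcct
PSMD12: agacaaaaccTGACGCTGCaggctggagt
PSMC5: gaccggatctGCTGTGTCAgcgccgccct
PSME4: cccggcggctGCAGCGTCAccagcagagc
PSMB10: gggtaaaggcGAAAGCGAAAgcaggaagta
PSME2: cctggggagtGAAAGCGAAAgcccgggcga
TGACNNNGC was found in the windows of 13 of 42 proteasome genes (31.0%) and of 13.2% of 27305 genes in the table. The 13 include PSMB9, PSME1, PSME2, PSME4, PSMG1 and PSMG2, which are not alpha, standard beta or 19S genes. The share is thus not that of the core and 19S genes alone. PSMA1, PSMD7 and PSMD14, the proteasome genes called higher with NBT alone, did not hold TGACNNNGC. The other letters were found in 19 of 42 against 37.0% for CCAAT, in 3 of 42 against 7.73% for CACGTG, in 6 of 42 against 8.09% for TTCNNNGAA, and in 5 of 42 against 3.71% for GAAANNGAAA. These are counts of letters in 1 window per start site and say nothing of binding. Over all proteasome genes with a window, activators and assembly factors included, the median log2 ratio against control of those with and without TGACNNNGC was 0.21 and 0.27 for NBT, 0.19 and 0.15 for trametinib, and 0.28 and 0.37 for both drugs.

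With NBT alone nearly all core and 19S genes were higher, most of them by a small amount. Of the 34 alpha, standard beta and 19S genes, 33 had an interval wholly above 0, PSMD5 had one below 0, and their median log2 ratio against control was 0.29. Over all 47 genes 35 intervals lay above 0 and 5 below, where 23.6% of all 13083 tested genes lay above and 26.0% below, and the median of all genes was 0.00. At the limit of 0.5, 3 proteasome genes were higher and 1 was lower, beside 6.48% and 5.84% of all genes, so the count past the limit was near the background. The 3 were PSMA1, PSMD7 and PSMD14, and with TPM values only 1 gene was higher past the limit and 1 was lower.

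PSMD14, the deubiquitinase that cuts ubiquitin chains from substrates as they enter, had 1980 counts in the control library, 3466 with NBT, 2254 with trametinib and 3814 with both drugs. Both libraries with NBT stood above both without it. Its log2 ratio of NBT against control was 0.76 (0.68 to 0.84), a fold of 1.69, the highest of the proteasome genes. PSMD7, its partner in the 19S lid, had 3368, 5040, 3877 and 6043 counts in the same order and a log2 ratio of 0.53 (0.47 to 0.59). PSMA1, an alpha subunit, had 2769, 4089, 3196 and 4638 counts and a log2 ratio of 0.51 (0.44 to 0.58). The order of the libraries was the same for these 3 genes, with the control library lowest and the combination library highest.

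Within the alpha, standard beta and ATPase groups the ratios lay close together. The alpha subunits ran from 0.23 for PSMA3 to 0.51 for PSMA1 with NBT alone, and the standard beta subunits from 0.22 for PSMB5 to 0.41 for PSMB7. PSMB5, PSMB6 and PSMB7 carry the chymotrypsin-like, caspase-like and trypsin-like sites. PSMB5 had 2751 counts in the control library and 3311 with NBT, PSMB6 had 2309 and 3022, and PSMB7 had 5311 and 7299. The ATPases, which form the ring that unfolds substrates, ran from 0.16 for PSMC3 to 0.45 for PSMC2. The non-ATPase genes were spread more widely, from PSMD5 at the low end to PSMD14 at the high end. PSMD5, a chaperone that leaves before the 19S particle is complete, had 1685 counts in the control library and 1609 with NBT, with a log2 ratio of -0.12 (-0.22 to -0.02). PSMD9 and PSMD10 are also chaperones, and all 3 are counted here with the 19S genes by name. Their median with NBT was 0.209, beside 0.365 for the other 11 non-ATPase genes.

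The activators and the assembly factors had lower medians than the core and the cap. The 4 activators had a median log2 ratio of 0.00 with NBT, from -0.07 for PSME1 to 0.21 for PSME4, and the 6 assembly and inhibitor genes had 0.04. Of the latter, POMP, the maturation factor that assembles the core and is then its first substrate, was the highest at 0.24 (0.17 to 0.31), like PSME4 at the level of core genes such as PSMB5, with 2994 counts in the control library and 3653 with NBT. PSMG1 and PSMG2, which pair to start the alpha ring, had ratios of 0.02 and 0.05, and PSMG3, the partner of PSMG4, had 0.09, all with intervals that held 0. PSMG4 had 391 counts in the control library, 337 with NBT, 419 with trametinib and 289 with both drugs, and its ratio with NBT was -0.26 (-0.48 to -0.05). PSMF1, the inhibitor PI31, stood at -0.11 (-0.18 to -0.04).

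**Figure D2:**
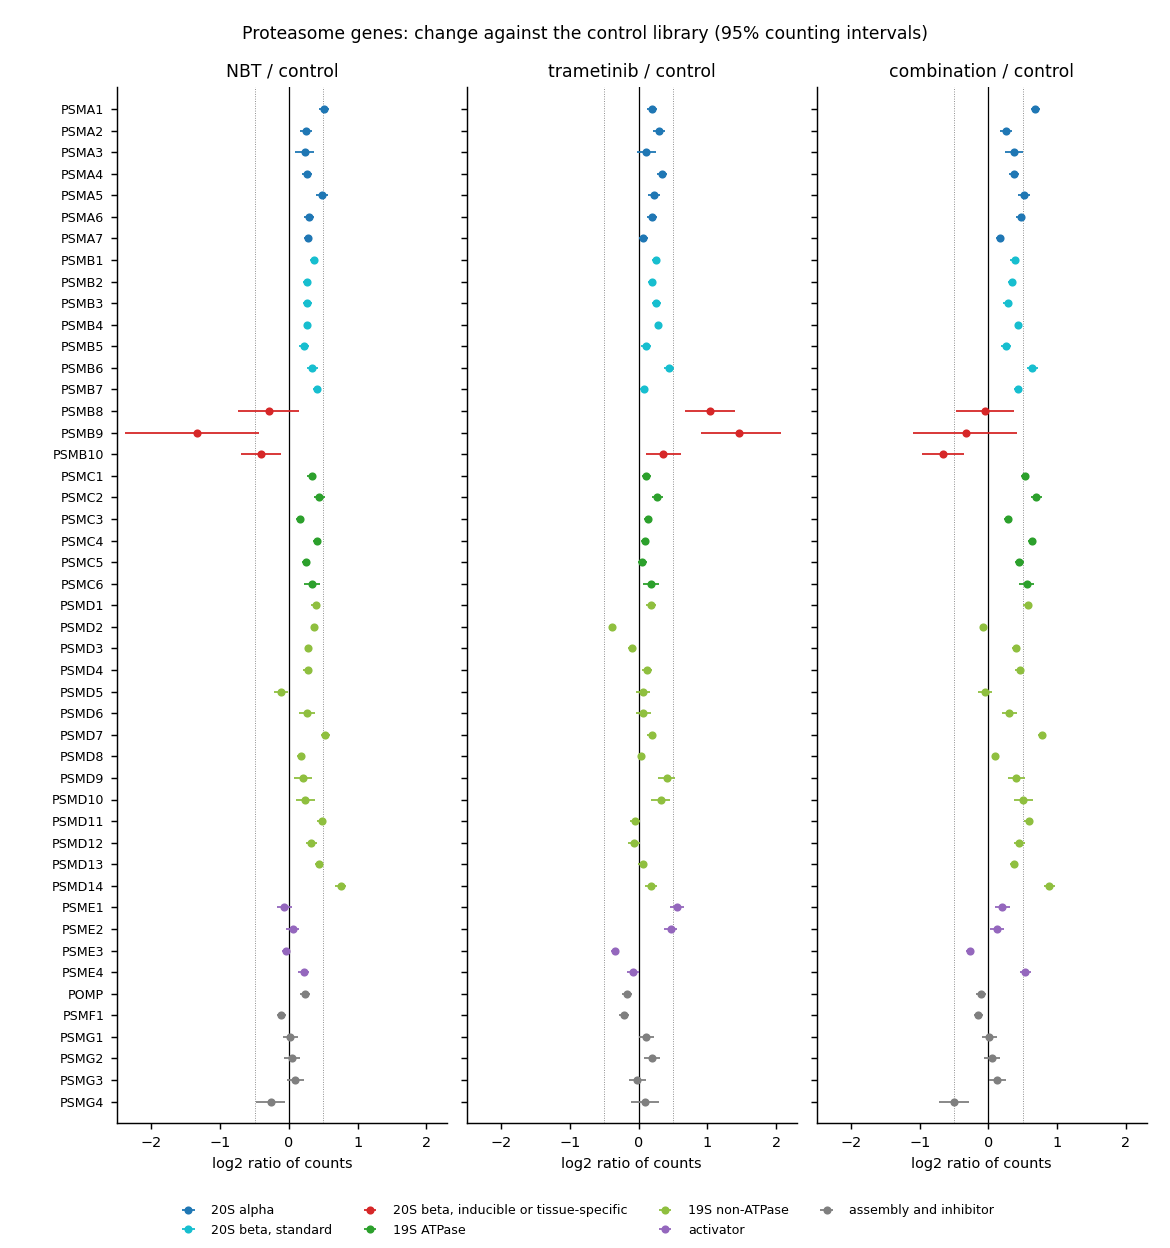
The log2 ratio of counts (x axis) of each of the 47 genes in the NBT, trametinib and combination libraries against the control library is drawn as a point with its 95% counting interval, coloured by group, with dotted lines at the limit of 0.5. With NBT nearly all core and 19S points lie between 0.1 and 0.6, with the combination they lie further right, and with trametinib the inducible subunits PSMB8 and PSMB9 stand apart above 1.

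With trametinib alone fewer of the core and 19S genes had an interval above 0 than with NBT alone. The core and 19S genes had a median log2 ratio of 0.15, with 24 of 34 intervals above 0 and 2 below. Over the 47 genes 31 intervals lay above 0 and 5 below, beside 34.0% and 23.4% of 13254 tested genes. The scaling matters here, since the median of all genes was 0.08 with library sums and 0.00 with edgeR's TMM factors, and with TMM factors 23 of the 47 intervals lay above 0 and 8 below. At the limit of 0.5, 3 genes (PSMB8, PSMB9 and PSME1) were higher and 0 lower, beside 12.2% and 7.12% of all genes, and 63.2% of the calls over all genes were higher with library sums and 52.0% with TMM factors. None of the 34 core and 19S genes was past the limit.

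By group, the alpha subunits ran from 0.07 for PSMA7 to 0.34 for PSMA4 with trametinib and the standard beta subunits from 0.08 for PSMB7 to 0.44 for PSMB6, though with TMM factors PSMA7 came to -0.01 and PSMB7 to 0.00 (both had intervals above 0 with library sums). PSMB6 had 2309 counts in the control library, 3022 with NBT, 3161 with trametinib and 3759 with both, so each drug's library stood above the control. The ATPases had a median of 0.12, from 0.05 for PSMC5 (an interval that held 0) to 0.27 for PSMC2, and the non-ATPase genes had a median of 0.07, which with TMM factors became -0.01. The assembly and inhibitor genes had a median of 0.03, which with TPM values became -0.09. In that group PSMG2 was the highest at 0.19 and PSMF1 the lowest at -0.21, and POMP stood at -0.17, with PSMG1 at 0.11, PSMG3 at -0.02 and PSMG4 at 0.09.

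PSMD2, the large scaffold subunit of the 19S base, went its own way. It had 13899 counts in the control library, 18529 with NBT, 10713 with trametinib and 13727 with both drugs, the most counts of any proteasome gene. It was higher with NBT than without it, at 0.36 (0.33 to 0.40) without trametinib and 0.31 (0.27 to 0.34) with it, and lower with trametinib than without it, at -0.39 (-0.42 to -0.35) without NBT and -0.45 (-0.48 to -0.41) with NBT. PSMD9, a chaperone of the 19S base, was at the other end of the group with 904, 1082, 1210 and 1250 counts in the order control, NBT, trametinib and combination and a ratio with trametinib of 0.41 (0.28 to 0.53).

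In the combination library the core and 19S genes were the highest. The combination library was the highest of the 4 for 29 of 47 proteasome genes (61.7%), where it was the highest for 29.8% of all 13509 genes with at least 10 counts, and for 27 of the 34 core and 19S genes, with all 7 standard beta subunits and all 6 ATPases among them. Against control the median log2 ratio of the 34 was 0.43, with 32 intervals above 0 and 1 below, that of PSMD2. Over the 47 genes 36 intervals lay above 0 and 6 below, beside 33.7% and 30.8% of 13211 tested genes. At the limit of 0.5, 13 were higher and 1 was lower, beside 15.7% and 12.8%. With other scalings the 13 became 10 or 11.

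The 12 core and 19S genes past the limit were the alpha subunits PSMA1 and PSMA5, the catalytic PSMB6, the ATPases PSMC1, PSMC2, PSMC4 and PSMC6, and PSMD1, PSMD7, PSMD10, PSMD11 and PSMD14. The highest was PSMD14 at 0.88 (0.80 to 0.96), a fold of 1.84, followed by PSMD7 at 0.78 (0.72 to 0.84). In the ATPase ring PSMC2 was the highest at 0.69, having 2170 counts in the control library, 3059 with NBT, 2640 with trametinib and 3669 with both, and PSMC3 the lowest at 0.28. The alpha subunits ran from 0.17 for PSMA7 to 0.68 for PSMA1, and the standard beta subunits from 0.25 for PSMB5 to 0.64 for PSMB6, with PSMB7 at 0.43. Of the assembly factors, POMP had 2893 counts and a ratio of -0.11 (-0.19 to -0.04), PSMG4 had -0.50 (-0.72 to -0.28), PSMF1 had -0.15, and PSMG1, PSMG2 and PSMG3 had 0.01, 0.06 and 0.13, so the 6 as a group had a median of -0.05.

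PSME4, which encodes the activator PA200, was the 13th gene past the limit. It had 2109 counts in the control library, 2535 with NBT, 2008 with trametinib and 3196 with both. The combination library was the highest and the NBT library the next, with a ratio of the combination against control of 0.54 (0.46 to 0.62). PSME3, the nuclear activator PA28 gamma, had 6668, 6679, 5280 and 5774 counts in the same order and was lower in both libraries with trametinib, at -0.35 (-0.40 to -0.30) with trametinib alone and -0.27 (-0.32 to -0.22) with both against control. PSME1 and PSME2, the PA28 alpha and beta subunits, had ratios of 0.20 and 0.12 with the combination against control.

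The change with NBT can be read once without trametinib (NBT against control) and once with it (combination against trametinib), and these 2 ratios share no library. With trametinib present, 29 of the 34 core and 19S genes again had an interval above 0 and 1 below, with a median log2 ratio of 0.28 beside 0.29 without trametinib. Over the 47 genes 32 intervals lay above 0 and 8 below, beside 27.5% and 32.8% of 13312 tested genes. At the limit of 0.5, 7 were higher and 4 lower, beside 10.1% and 13.4%. The 7 were PSMC4, PSMD3, PSMD7, PSMD11, PSMD12, PSMD14 and PSME4, and the 4 were PSMB8, PSMB9, PSMB10 and PSMG4. In this comparison the alpha subunits ran from -0.03 for PSMA2 to 0.49 for PSMA1, the standard beta subunits from 0.03 for PSMB3 to 0.35 for PSMB7, and the ATPases from 0.15 for PSMC3 to 0.54 for PSMC4. The non-ATPase genes ran from -0.11 for PSMD5 to 0.71 for PSMD14, and the assembly and inhibitor genes from -0.58 for PSMG4 to 0.15 for PSMG3.

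The difference between the 2 NBT changes (with minus without trametinib) had an interval that held 0 for 18 of the 47 genes. It lay above 0 for 9 and below 0 for 20, beside 16.4% and 21.1% of all genes. The groups differed, with the medians of the 20S core below 0 and those of the 19S particle near 0. In the 20S core none of the 17 genes had an interval above 0 and 11 lay below, with medians of -0.17 for the alpha subunits and -0.12 for the standard beta subunits. The 19S particle had 6 above and 4 below of 20, with 0.06 for the ATPases and -0.02 for the non-ATPase genes. PSMA2, an alpha subunit, had 1905 counts in the control library, 2345 with NBT, 2350 with trametinib and 2377 with both, so each drug's library stood above the control and the combination did not differ from either beyond counting error, with a difference of -0.28 (-0.40 to -0.16). PSMD3 had 4747, 5989, 4474 and 6554 counts and a difference of 0.22 (0.14 to 0.29). PSME4 had the largest positive difference, 0.41 (0.29 to 0.52), and PSMB8 the largest negative one, -0.79 (-1.34 to -0.24).

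**Figure D3:**
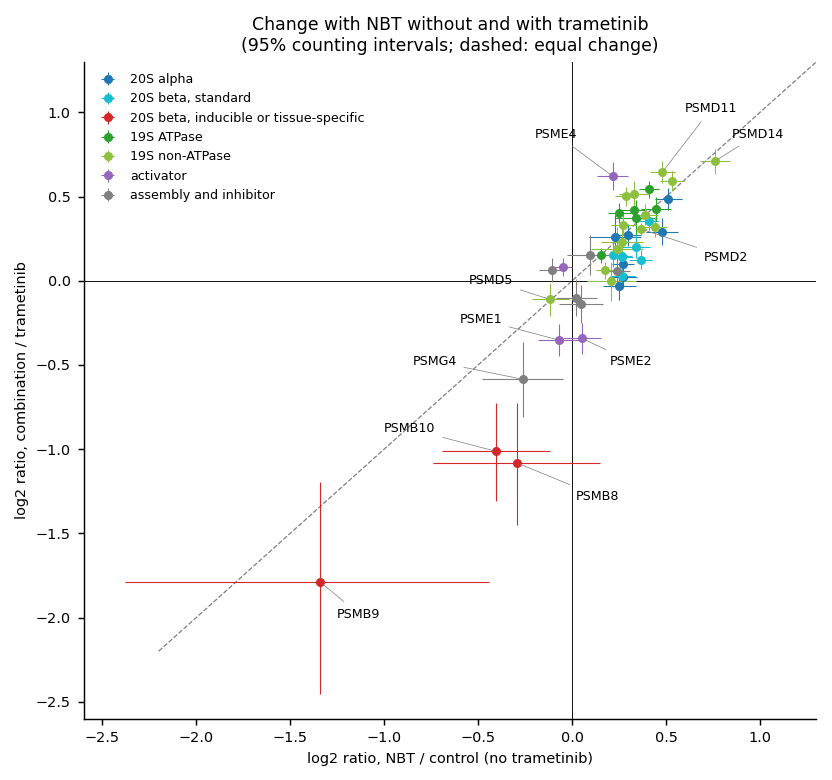
Each point is 1 of the 47 genes, with the log2 ratio of NBT against control on the x axis and of the combination against trametinib on the y axis, and 95% counting intervals on both. Most core and 19S genes lie in the upper right near the dashed line of equal change, with PSME4 above it and with the inducible subunits and PSME1 and PSME2 below it.

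The change with trametinib in the presence of NBT (combination against NBT) was small. Of the 34 core and 19S genes 22 had an interval above 0 and 4 below, with a median of 0.12, and over the 47 genes 25 lay above 0 and 7 below, beside 28.4% and 23.5% of 13223 tested genes. At the limit of 0.5, 1 gene (PSMB9) was higher and 0 lower, beside 8.47% and 6.58%. The ATPases stood closest together, from 0.12 for PSMC3 to 0.25 for PSMC2. The alpha subunits ran from -0.10 for PSMA7 to 0.17 for PSMA6, the standard beta subunits from 0.01 for PSMB3 to 0.30 for PSMB6, and the non-ATPase genes from -0.45 for PSMD2 to 0.27 for PSMD10, while the assembly and inhibitor genes ran from -0.35 for POMP to 0.04 for PSMG3 and the activators from -0.22 for PSME3 to 0.32 for PSME4.

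The inducible subunits had another order of libraries than the standard beta subunits. PSMB8, the inducible form of the chymotrypsin-like subunit, had 96 counts in the control library, 81 with NBT, 199 with trametinib and 97 with both. PSMB9, the inducible form at the site of PSMB6, had 35, 14, 98 and 29. PSMB10, the inducible form at the site of PSMB7, had 230, 180, 297 and 152. For all 3 the trametinib library was the highest, as it was for 33.1% of all genes, and the combination library was below the control after scaling, though for PSMB8 and PSMB9 the interval of that ratio held 0.

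With trametinib alone the log2 ratios against control were 1.03 (0.68 to 1.41) for PSMB8, 1.46 (0.90 to 2.07) for PSMB9 and 0.35 (0.10 to 0.61) for PSMB10, and with the combination against trametinib they were -1.08 (-1.45 to -0.73), -1.79 (-2.46 to -1.20) and -1.01 (-1.31 to -0.73). A second call used the study's limits, a log2 ratio of at least 1 in size and a false discovery rate of 0.05, but with an exact binomial comparison of the counts of 2 libraries in place of the study's own Poisson procedure. By it PSMB8 and PSMB9 were the 2 proteasome genes higher with trametinib against control and 0 were lower, beside 4.50% and 2.57% of all genes. With NBT 0 were higher and 1 was lower, PSMB9 at -1.34 (-2.38 to -0.44), beside 1.89% and 1.19%. With the combination against control 0 were past these limits in either direction, beside 5.63% and 4.47%, and for the combination against trametinib 0 were higher and these 3 were lower, beside 3.16% and 4.39%. For the combination against NBT, PSMB9 had a ratio of 1.01 (0.07 to 2.07) on 29 and 14 counts. In levels they remained minor forms. PSMB8 stood at 2.92% of the TPM of PSMB5 in the control library, 2.06% with NBT, 5.56% with trametinib and 2.33% with both. PSMB9 stood at 1.22%, 0.371%, 2.49% and 0.620% of PSMB6, and PSMB10 at 4.36%, 2.48%, 5.30% and 2.05% of PSMB7. The counts behind PSMB9 are low, and its intervals are the widest of the 47.

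PSME1 and PSME2, which interferon raises with the inducible subunits, also had the trametinib library on top. PSME1 had 1336 counts in the control library, 1318 with NBT, 1981 with trametinib and 1605 with both, and PSME2 had 1602, 1720, 2231 and 1820. Their ratios with trametinib were 0.56 (0.45 to 0.66) and 0.46 (0.37 to 0.56), and for the combination against trametinib -0.35 (-0.45 to -0.26) and -0.34 (-0.43 to -0.25). With TMM factors PSME1 stood at 0.48 and was no longer past the limit. PSMB8 and PSMB9 lie side by side with TAP1 and TAP2 on chromosome 6, and PSME1 and PSME2 lie close together on chromosome 14.

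Of 5 genes on the interferon side, 3 were past the limit in the higher direction with trametinib and 0 in the lower, beside 12.2% and 7.12% of all genes. IRF1, an interferon regulatory factor, had 556 counts in the control library, 440 with NBT, 874 with trametinib and 576 with both, the same order of libraries as PSMB8. In both genes the control and combination libraries did not differ beyond counting error. NLRC5, the activator of class I antigen presentation genes, had 518, 552, 1100 and 1000 and was high in both trametinib libraries. TAP1, a subunit of the peptide transporter, had 558, 458, 856 and 741. TAP2, the partner of TAP1, ran the other way, with 2082, 2424, 1548 and 2074. The list thus did not move as one.

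**Figure D4:**
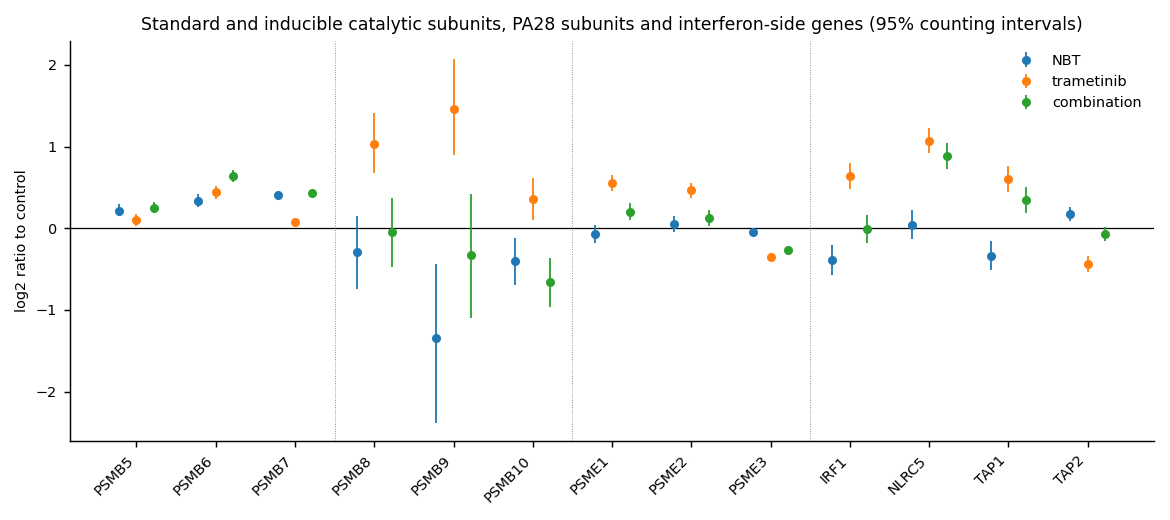
The log2 ratio to control (y axis) with its 95% counting interval is drawn for the standard catalytic subunits, their inducible counterparts, the PA28 subunits PSME1, PSME2 and PSME3, and 4 interferon-side genes, in the NBT, trametinib and combination libraries. PSMB8, PSMB9, PSME1, PSME2 and IRF1 are high with trametinib alone and lower with the combination, whereas NLRC5 is high in both and TAP2 is low with trametinib.

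The RefSeq transcripts behind these values were mostly the same in the 4 libraries. The transcript table lists 118 transcripts of proteasome genes, and 14 genes have 1. The leading transcript was the same in all libraries for 45 of the 47 genes and held over 80% of the counts in every library for 38. A share moved by over 5 percentage points in 14 genes. In PSMD2 the form NM_001278708.2 took 3.21% of the counts in the control library, 10.7% with NBT, 12.6% with trametinib and 8.30% with both. In PSMD4, the ubiquitin receptor of the 19S particle, the form NM_001330692.2 took 17.1%, 10.9%, 20.1% and 24.4%. PSMB8 was divided between NM_004159.5 and NM_148919.4, the first with 64.5%, 59.9%, 67.0% and 74.0%. Such shares rest on the authors' division of reads between overlapping forms, whose error is not in the table.

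Proteins that bind the proteasome but lie outside the naming rule were followed in a list of 12. With NBT 2 were past the limit and higher and 0 lower, with trametinib 0 and 0, and with the combination 6 and 0, with medians of 0.28, 0.05 and 0.54 against control. Over all genes the shares past the limit, higher and lower, were 6.48% and 5.84% with NBT, 12.2% and 7.12% with trametinib, and 15.7% and 12.8% with both. ZFAND2A, a stress protein that binds the 19S particle, had 473 counts in the control library, 975 with NBT, 584 with trametinib and 1367 with both. ZFAND5, which stimulates proteasome activity, had 2215, 3462, 2317 and 4936. AKIRIN2, needed to bring proteasomes into the nucleus, had 937, 1246, 851 and 1515, and ECPAS, an adaptor between core and cap, had 3078, 3951, 3316 and 5457. For these 4 the combination library was the highest. The ubiquitin receptor ADRM1 had 7797, 9536, 6901 and 9108, and the deubiquitinase UCHL5, its partner, had 955, 935, 797 and 802, lower in both libraries with trametinib.

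Of 9 shuttle and segregase genes, 3 were past the limit and higher with NBT and 4 with the combination, beside 6.48% and 15.7% of all genes, and 0 were lower, beside 5.84% and 12.8%. The 4 are p97, which pulls ubiquitinated proteins out of membranes and complexes for the proteasome, and adaptors of it. VCP, the p97 ATPase itself, had 4340 counts in the control library, 6642 with NBT, 5075 with trametinib and 7797 with both. NPLOC4 had 2764, 4265, 3104 and 5671, NSFL1C had 1908, 2848, 2251 and 3425, and UFD1 had 1863, 2596, 2169 and 2835. Other shuttles that carry substrates to the proteasome were closer to level, with ratios for the combination against control of 0.29 for RAD23B, 0.40 for UBQLN1, -0.17 for UBQLN2 and -0.17 for UBQLN4. UBA1, the main ubiquitin E1, had 12742 counts in the control library, 11621 with NBT, 11815 with trametinib and 10366 with both, and was lowest in the combination library.

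The list of genes that control proteasome genes had 12 members. With NBT 3 were higher and 0 lower past the limit, with trametinib 1 and 1, and with the combination 7 and 1, beside 6.48% and 5.84%, 12.2% and 7.12%, and 15.7% and 12.8% of all genes. NFE2L1, the gene of NRF1, had 3281 counts in the control library, 3774 with NBT, 3710 with trametinib and 6234 with both, so the combination library stood apart while the single drugs were close to each other. NFE2L2, the gene of NRF2, had 2196, 2698, 3407 and 4046. SYVN1 and SEL1L, which form the ubiquitin ligase of the endoplasmic reticulum that passes proteins to p97, had 2075, 4424, 1531 and 5083 counts and 1349, 2669, 1583 and 3749. NGLY1, the enzyme that removes sugars from NRF1, had 462, 659, 571 and 859, and DDI2, the protease that cleaves NRF1, had 1058, 1035, 956 and 906. The small MAF partners MAFG and MAFK had ratios of 0.78 and 0.78 for the combination against control, whereas MAFF had 598, 839, 139 and 412 counts. The NF-Y genes NFYA, NFYB and NFYC had ratios of 0.09, 0.00 and 0.17 for the combination.

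**Figure D5:**
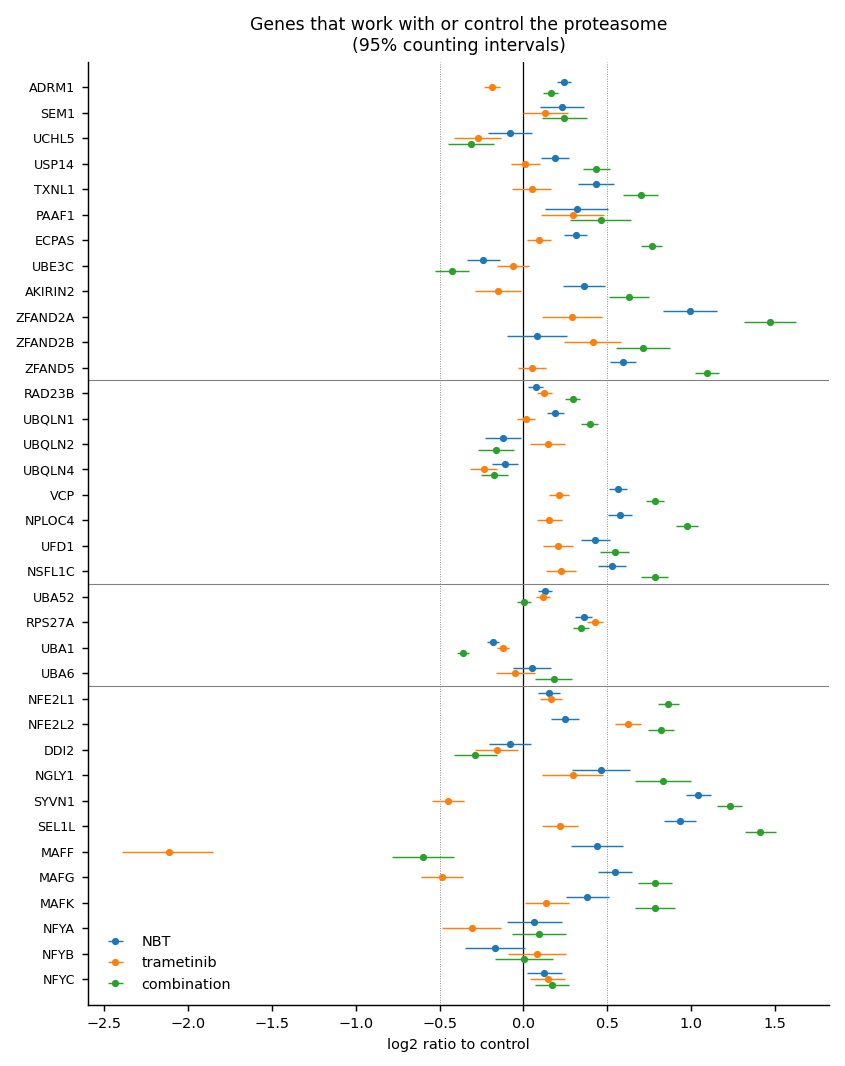
The log2 ratio to control (x axis) with its 95% counting interval is drawn for genes outside the naming rule in the NBT, trametinib and combination libraries. From top to bottom the blocks are proteasome-associated proteins, ubiquitin shuttles and segregase, ubiquitin and E1 genes, and genes that control the proteasome genes, with dotted lines at the limit of 0.5. ZFAND2A, ZFAND5, SYVN1 and SEL1L lie past 1 with the combination.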

How the data were processed

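RNA of cells labelled MIA PaCa-2 was sequenced on the BGISEQ-500 platform, with 1 library per condition. The authors deposited, per gene and per RefSeq transcript, estimated counts without normalization as well as TPM and FPKM values, of which FPKM was not used here. The submitters' processing notes name Bowtie2 2.2.5, RSEM 1.2.8 and hg38 without their role. The labels describe removal of bacterial ribosomal RNA. Any read filter of the authors is already in these values.

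Estimated counts were rounded to whole numbers (15 of 48 genes had counts that were not whole, by a tolerance of 0.005) and scaled to the library sum. Log2 ratios were computed with 0.5 reads added, wherever the higher library reached 10 counts. Intervals are 95% Clopper-Pearson intervals of a ratio of 2 counts, and the interval of a difference of 2 ratios adds their counting variances. PCR copies are not independent molecules, so these intervals hold counting error alone. No p-value is given, since 1 library per condition leaves no estimate of the spread between cultures. Against the study's limit of 1 on the log2 scale, a limit of 0.5 was used. Calls at the study's limits used an exact binomial comparison of 2 libraries' counts, Benjamini-Hochberg adjusted, where the study used PossionDis. The limit of 0.5 was tested on simulated libraries of NBT against control with 200 changed genes. It called 200 of these and 102 unchanged genes among 13153. The changed genes had median log2 ratios of 1.51 (higher) and -1.50 (lower), larger than the changes of most proteasome genes. The simulation therefore cannot show how often changes of that smaller size are found. Nor does it cover the spread between cultures, of which these libraries leave no estimate.

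Named genes were, in every group and comparison, the proteasome genes with the highest and lowest log2 ratio among those with at least 100 counts, the catalytic and inducible subunits, the activators, the assembly factors and the inhibitor, genes past 1, and genes of the pathway lists, some of which are not reported here. Genes past 0.5, the genes that show an order of libraries, and PSMB3, PSMD3, PSMD4, PSMD12 and PSMA4 were chosen after their values were seen. The members and lists were chosen with earlier results of these data known. Alternatives were edgeR 4.0.16 TMM factors, DESeq2 1.42.0 size factors, deposited TPM with a pseudocount of 0.1, 5 added reads, summed transcript counts, other limits and other count minimums. Python 3.11.15 (matplotlib 3.10.9, numpy 2.4.6, pandas 2.3.3, scipy 1.17.1) and R 4.3.3 ran the steps. Promoter windows and gene positions came from RefSeq, GRCh38.p14.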

Additional observations from a re-analysis of the deposited data

Results flagged for a closer look

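In 2 of the 47 proteasome genes the change with trametinib had opposite directions without and with NBT, each with a counting interval off 0 (4.26%, beside 4.70% of 12968 genes tested in both comparisons). The alpha subunit PSMA7 had a log2 ratio of 0.068 for trametinib against control and of -0.10 for the combination against NBT. With TMM factors the first came to -0.01. The 19S scaffold subunit PSMD3 had -0.10 for trametinib against control and 0.12 for the combination against NBT, and with TMM factors the first came to -0.17. The difference between the 2 changes (with minus without NBT) equals that between the 2 NBT changes given above. It was -0.17 (-0.25 to -0.09) for PSMA7 and 0.22 (0.14 to 0.29) for PSMD3, with counting error only. With 1 library per condition it was not tested between conditions in either gene.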

How the results depend on the processing

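Medians of 13 groups and lists, counts past the limit and differences of the NBT changes were recomputed with each alternative, and no called value changed sign. No paired analysis was possible because each condition has 1 library, and no library could be left out for the same reason. Adding 5 reads, summing transcript counts or another count minimum moved none of the medians or counts beyond their counting error or 1.5 times. Scaling bore mostly on trametinib against control. With TMM factors the medians there were 0.12 for the alpha subunits, 0.18 for the standard beta subunits, 0.045 for the ATPases, -0.009 for the non-ATPase genes, 0.07 for the shuttles and 0.094 for the ubiquitin and E1 genes, and with median-of-ratios factors 0.19 for the standard beta subunits, 0.055 for the ATPases and 0.10 for the ubiquitin and E1 genes. With TPM the medians were 0.20 for the standard beta subunits and 0.27 for the ATPases with NBT, -0.087 for the assembly and inhibitor genes with trametinib, and, for the ubiquitin and E1 genes, 0.045 with NBT, 0.14 with the combination and -0.042 for the combination against trametinib, where TMM factors gave 0.049. Of the calls over all genes with NBT, 52.6% were higher with library sums and 39.4% with TPM.

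The number of proteasome genes higher than control with NBT was 1 with TPM, and the number lower with the combination was 2 with TMM factors, with median-of-ratios factors and with TPM. With a limit of 1, the proteasome genes higher were 0 with NBT, 0 with the combination and 0 for the combination against trametinib, and lower 0 with the combination. With a limit of 0.25, those higher were 26 with NBT, 14 with trametinib, 31 with the combination, 20 for the combination against trametinib and 5 for the combination against NBT, and those lower 3, 2 and 3 against control and 2 for the combination against NBT. Over all genes, in the order NBT, trametinib and combination against control, combination against trametinib and combination against NBT, a limit of 1 gave 275, 645, 776, 439 and 403 higher and 189, 349, 610, 618 and 336 lower, and a limit of 0.25 gave 1959, 3205, 3532, 2658 and 2450 higher and 2007, 2008, 3102, 3267 and 1962 lower. Of the 44 genes of the pathway lists, those higher with NBT were 5 with TPM, 1 with a limit of 1 and 18 with 0.25, and those lower 1 with TPM and 2 with 0.25. With trametinib 1 was higher with a limit of 1 and 10 with 0.25, and those lower were 4 with TMM factors, 4 with median-of-ratios factors, 3 with TPM and 6 with 0.25. With the combination 5 were higher with a limit of 1, and those lower were 0 with a limit of 1 and 5 with 0.25. For the combination against trametinib 7 were higher with a limit of 1, and those lower were 0 and 5. For the combination against NBT, those higher were 0 and 17. The number of proteasome genes highest in the combination library, recomputed after the data were seen, was 27 with TMM factors and 29 with TPM. Depth limits PSMB9 most, with 14 to 98 counts.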
